A study of Mus musculus with 6 samples.

Results

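Cyclins, the cyclin-dependent kinases (CDKs) they activate, and the proteins that switch these kinases on or off were examined in pre-B cells of control and Mef2c-deficient mice. Members were chosen by gene symbol: cyclins, numbered CDKs, CDK inhibitors of the Cdkn family, Cdc25 phosphatases and Cks subunits, together with the kinases Wee1 and Pkmyt1, but not Ccng1 or Cdkn1a. The rule gave 60 genes of 17372 named genes on the array table, and 53 of them were among the 11271 genes bright enough to be tested. Ccnb1, Ccnt2 and Ccnl1 were not analysed here.

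The cells were sorted from fresh bone marrow as B220+IgM-CD43- pre-B cells, in which the light chain genes of immunoglobulin recombine. The mice were 9 months old. The Mef2c-deficient group was Vav-Cre Mef2c fl/fl, in which Cre is active throughout blood-forming cells, so the deletion was not limited to B cells. The control label names no genotype; the study used same-age mice that carried Mef2c fl/fl or Mef2c fl/+ alleles without Cre, or Vav-Cre with 1 floxed allele, so some controls may have had Cre and 1 deleted copy. Each group held 3 Affymetrix mouse expression arrays. No source ties an array to an animal, although the study calls its samples independent, and p-values here measure only the spread between these samples. Mef2c itself was not analysed here.

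Values are log2 of the deposited intensities, and differences are Mef2c-deficient minus control, with the standard error (SE) of the limma fit. The base in which the deposited scale was formed is not settled, since the brightest deposited value has a log2 of 21.03 and a natural log of 14.58. If that base was e, every log2 difference below is 0.69 times the printed one. Levels of different probe sets cannot be compared with each other.

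In a dividing cell, D-type cyclins with Cdk4 or Cdk6 and then E-type cyclins with Cdk2 inactivate the retinoblastoma family and release E2F factors at the entry to S phase. A-type cyclins act in S phase and G2, and B-type cyclins with Cdk1 drive mitosis. In bone marrow, large pre-B cells divide and then become small resting pre-B cells, and both lie within a B220+IgM-CD43- gate. A separate branch of the family, including cyclin H with Cdk7, cyclin T with Cdk9 and cyclin C with Cdk8 or Cdk19, works on RNA polymerase II rather than on cell division.

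Markers of the B lineage matched the label: 10 of 12 listed genes were measured and all 10 passed the filter, at percentiles 89.1 to 99.7 of all probe sets. Their means were lower in Mef2c-deficient arrays for 8 of 10, beside 7026 of all 11271 genes tested. The groups were separate on the lower side for 3 of 10, near the 27.1% of all genes. The median deviation of these markers from the control mean was -0.09, -0.58 and -1.10 in Mef2c-deficient replicates 1 to 3. For all genes tested it was -0.37, -0.21 and -0.24. Markers of other cells also differed between arrays. All 9 measured plasmacytoid dendritic cell markers had a higher mean in Mef2c-deficient arrays, and their log2 summed level was 17.26 to 18.78 in controls and 18.68 to 20.42 in Mef2c-deficient arrays. For neutrophil markers the sums were 15.06 to 17.45 and 15.49 to 20.3, for monocyte or macrophage markers 16.41 to 16.72 and 16.68 to 18.56, and for T cell markers 9.95 to 11.4 and 11.15 to 14.87. Mef2c-deficient replicate 3 was the highest array for each of these 4 lists. A sum is set mainly by its brightest genes. In Mef2c-deficient replicate 2 the monocyte or macrophage sum was 17.88, with Ctss alone at 17.85 and Lyz2 at 10.2. In that array the T cell sum was 12.87, with Cd4 alone at 12.61 and Cd3d at 7.49. In control replicate 1 the plasmacytoid dendritic cell sum was 18.06, with Ly6d alone at 17.84. In these 4 lists 9 of 9, 8 of 10, 6 of 8 and 4 of 6 measured markers passed the filter. Other lists varied in direction. For plasma cell markers the sums were 16.38 to 16.69 in controls and 15.76 to 16.14 in Mef2c-deficient arrays. For erythroid markers they were 13.94 to 14.62 and 11.99 to 14.46, and for natural killer cell markers 10.37 to 11.62 and 10.87 to 14.57. For mature B markers they were 18.98 to 19.65 and 19.37 to 20.33, highest in Mef2c-deficient replicate 2. Dntt and Igll1, which mark early B-cell progenitors, were lower in Mef2c-deficient replicates 1 and 2 than in any control, and higher in replicate 3 than in replicates 1 and 2. Of the other measured genes listed with them, Flt3 read 7.97, 8.71 and 9.59 in controls and 7.85, 10.06 and 13.64 in Mef2c-deficient arrays. Its mean was 1.76 higher, with replicate 3 the highest array and replicate 1 below every control. Kit, which did not pass the filter, had a mean 0.30 higher, and Il2ra was at -1.09. The bacterial hybridisation controls were higher on the log2 scale in Mef2c-deficient arrays, by 1.66 to 1.84 for bioB, 1.51 to 1.57 for bioC and 0.49 to 1.13 for bioD. The part of these differences in the results below was not tested.

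Most members had a lower mean in the Mef2c-deficient group. Of 53 tested members, 42 had a lower mean and 11 a higher mean, and the median difference was -0.77. Of all 11271 genes tested, 7026 had a lower mean and 4245 a higher mean. The median of all genes tested was itself -0.36, so the members lay 0.41 below it (a relative difference of -0.41). No member passed limma with Benjamini-Hochberg adjustment over all genes, where the threshold of 0.05 was met by 0.0177% of all genes as lower and 0% as higher. At an unadjusted p under 0.05, 20 members (37.7%) were lower and 0 higher, beside 20.9% and 5.32% of all genes. With the study's pair of thresholds (a 2-fold change and an unadjusted p no higher than 0.05), 15 members (28.3%) were lower and 0 higher, beside 14.7% and 2.64% of all genes. The groups did not overlap for 20 members on the lower side (37.7%) and 3 on the higher side (5.66%), beside 27.1% and 10.6% of all genes. In each Mef2c-deficient array the members' median was below the control mean, at -0.60, -0.79 and -0.74 in replicates 1 to 3. The median of all genes tested was also below it in each, at -0.37, -0.21 and -0.24.

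These counts moved with the scaling of the arrays. After quantile normalization 10 members (18.9%) were lower at an unadjusted p under 0.05, beside 11.1% of all genes, and after cyclic loess 7 members (13.2%), beside 10.2%. These 7 were Ccnc, Ccnf, Cdc25b, Cdk6, Cdk19, Cdkn2aip and Wee1. The methods' t-test called 12 members lower (22.6%), beside 16.9% of all genes, and 1 higher, beside 641 of 11271 genes. Leaving out control replicate 1 gave 12 members (22.6%), beside 12.4% of all genes. An adjusted p under 0.05 was reached by 15 members as lower under array weights, where 1001 of all genes were lower, and by Wee1 and Ccng2 when Mef2c-deficient replicate 3 was left out, where 154 were. In bulk RNA, fewer cells of a kind and less RNA per cell cannot be told apart, so a lower value here may be either.

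**Figure D1:**
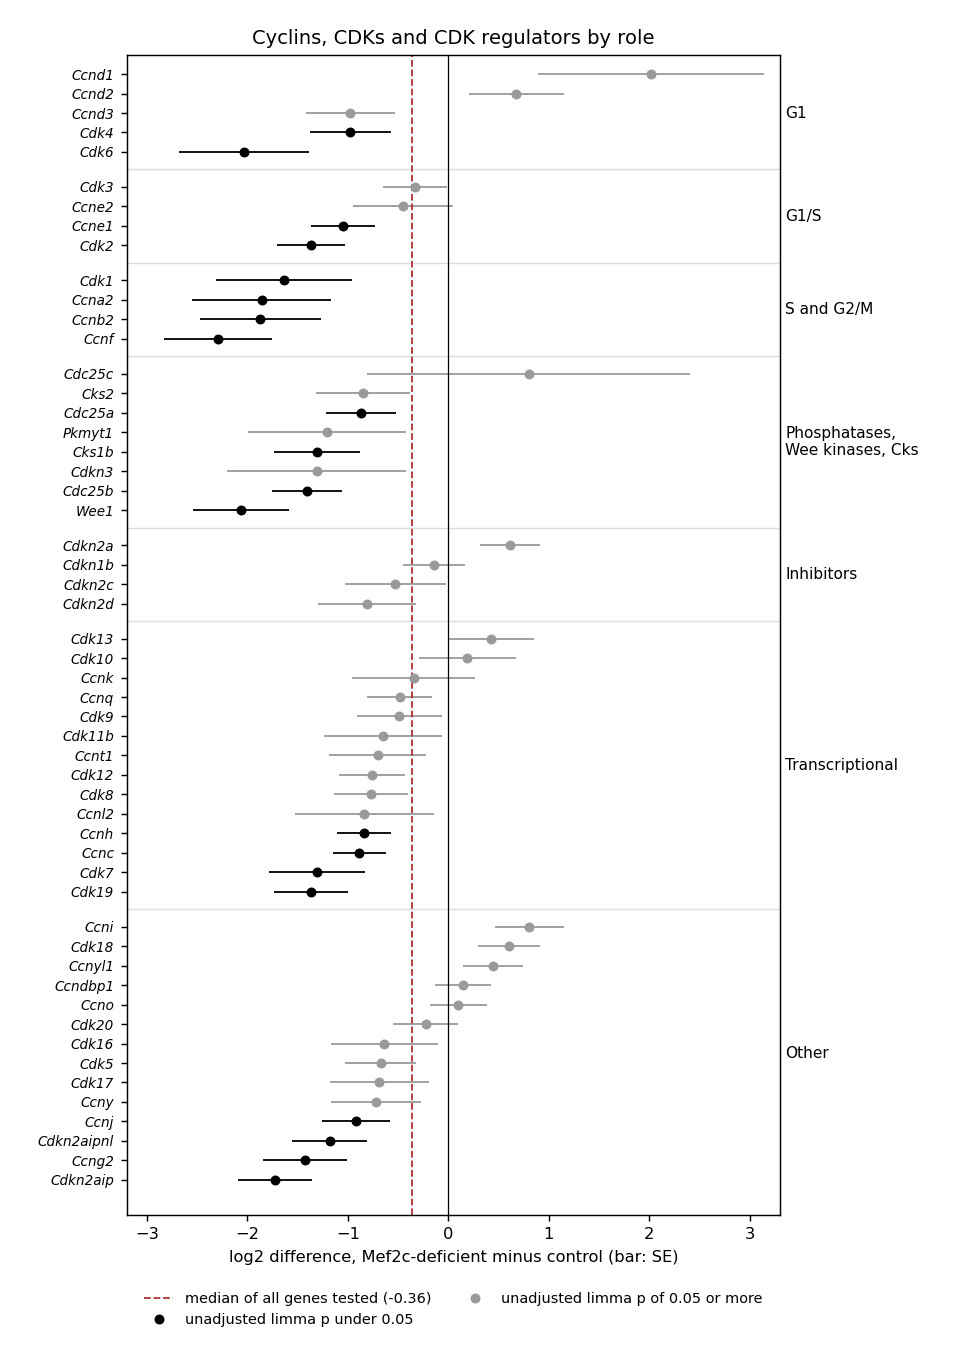
Log2 difference (Mef2c-deficient minus control) of each of the 53 tested members on the horizontal axis, grouped by role, with the SE as a bar; black points have an unadjusted limma p under 0.05 and the dashed line is the median of all genes tested, -0.36. All 4 tested S and G2/M members lie left of the line, with values from -2.29 to -1.64, while the 4 tested inhibitors spread from -0.81 to 0.62.

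The S and G2/M group held the lowest median of the role groups. It comprises the A-type and B-type cyclins, cyclin F and Cdk1. All 4 members tested had a lower mean and an unadjusted p under 0.05, beside 20.9% of all genes, with a median of -1.87, which is -1.51 relative to all genes. Ccnf counts here only because its control values carried its mean over the filter of 7.26, and with the 60th percentile filter, which drops it, the median of the other 3 members was -1.86 and its relative value -1.32. Ccna1 and Ccnb3, cyclins known mainly from germ cells, did not pass the filter, with ranges of 6.96 to 7.52 and 2.78 to 4.29.

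Ccna2, the S phase and G2 cyclin of somatic cells, read 14.49, 14.50 and 14.31 in control replicates 1 to 3, and 13.09, 10.85 and 13.79 in Mef2c-deficient replicates 1 to 3 (the order used throughout). The groups did not overlap, and replicate 2 was far below the others. Its difference was -1.86 (SE 0.70, limma adjusted p = 0.158). Ccnb2, a B-type cyclin that partners Cdk1 at the entry to mitosis, read 15.23, 14.97 and 15.18 in controls and 13.79, 11.79 and 14.19 in Mef2c-deficient arrays. Again the groups were separate and replicate 2 was lowest, with a difference of -1.87 (SE 0.60, adjusted p = 0.135). Ccnf, a cyclin with an F-box that serves a ubiquitin ligase rather than a CDK, read 9.16, 9.07 and 7.65 against 7.18, 5.98 and 5.84. The 3 deficient arrays were all below the lowest control and below the filter level of 7.26. The fitted difference was -2.29 (SE 0.54, adjusted p = 0.0963), a size read against values under that level. Cdk1, the mitotic kinase, read 15.19, 14.93 and 13.95 in controls and 14.54, 11.92 and 12.69 in Mef2c-deficient arrays. Here the groups overlapped, since replicate 1 of the deficient group was above control replicate 3, and the difference was -1.64 (SE 0.68, adjusted p = 0.181).

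Replicate 2 set much of the size of these differences. Per array, the group's median deviation from the control mean was -1.34, -3.05 and -1.47 in the Mef2c-deficient arrays, beside -0.37, -0.21 and -0.24 for all genes tested. Without replicate 2 the group's median was -1.11, or -0.74 relative to all genes, and without replicate 3 it was -2.19. Without replicate 2, Ccna2 was at -1.0, Ccnb2 at -1.14 and Ccnf at -2.12, each with an unadjusted p under 0.05, and Cdk1 at -1.07 with a p above it.

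The 250 bases before the start of Ccnb2, Ccnf, Cdk1 and Cks1b are shown because these members of the cell division groups, all with an unadjusted p under 0.05, hold both motifs often described in promoters of G2/M genes: the CCAAT box (CCAAT) and the cell cycle homology region (CHR, TTTGAA). Cdkn3, in the same groups, also holds both but is not shown, since its unadjusted limma p was 0.182. This choice used the expression values, so the promoters shown cannot tie the motifs to lower values. Sequences are RefSeq, build GRCm38.p6, minus strand, written 5′ to 3′ up to the base before the start. Capitals mark CCAAT and TTTGAA in either orientation (ATTGG and TTCAAA on the other strand) and, in Ccnb2, a match to the MEF2 motif on both strands.
Ccnb2, chr9:70421555-70421804: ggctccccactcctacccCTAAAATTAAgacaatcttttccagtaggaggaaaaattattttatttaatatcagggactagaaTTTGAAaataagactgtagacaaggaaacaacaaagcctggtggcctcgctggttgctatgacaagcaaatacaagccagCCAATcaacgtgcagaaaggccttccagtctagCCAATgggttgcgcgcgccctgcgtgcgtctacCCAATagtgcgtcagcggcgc
Ccnf, chr17:24251410-24251659: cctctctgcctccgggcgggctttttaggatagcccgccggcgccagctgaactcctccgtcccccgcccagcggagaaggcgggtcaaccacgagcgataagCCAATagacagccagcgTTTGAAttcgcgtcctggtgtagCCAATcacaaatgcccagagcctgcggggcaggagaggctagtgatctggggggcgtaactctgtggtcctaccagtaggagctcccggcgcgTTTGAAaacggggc
Cdk1, chr10:69352913-69353162: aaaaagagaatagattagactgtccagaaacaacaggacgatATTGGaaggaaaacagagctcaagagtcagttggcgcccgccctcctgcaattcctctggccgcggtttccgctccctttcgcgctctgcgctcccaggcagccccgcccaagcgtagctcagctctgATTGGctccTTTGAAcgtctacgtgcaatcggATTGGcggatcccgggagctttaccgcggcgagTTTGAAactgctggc
Cks1b, chr3:89418292-89418541: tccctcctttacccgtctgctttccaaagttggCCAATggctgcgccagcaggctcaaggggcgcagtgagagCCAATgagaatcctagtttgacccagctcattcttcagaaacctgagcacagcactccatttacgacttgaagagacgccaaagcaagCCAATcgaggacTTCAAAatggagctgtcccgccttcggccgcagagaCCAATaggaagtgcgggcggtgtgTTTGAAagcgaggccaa
Ccnb2 has 3 CCAAT boxes at 87, 54 and 21 bases upstream and a TTTGAA at 167. In Cdk1 the TTTGAA lies 71 and 15 bases upstream, in Ccnf 130 and 14 bases, and in Cks1b 17 bases upstream with a reversed copy at 77. The 46 members with a promoter in the table held CCAAT in 24 cases (52.2%), beside 37.5% of all 27025 genes and 39.9% of tested genes with a promoter. TTTGAA was in 8 (17.4%), namely Ccnb2, Ccnf, Ccni, Cdk1, Cdk16, Cdkn2b, Cdkn3 and Cks1b, beside 18.3% and 13%. The E2F letters TTTGGCGC were in Cdc25a alone (2.17%, beside 0.485% and 0.901%), and the second form TTTCCCGC in Cdk2 and Cdkn2a (4.35%, beside 1.03% and 2.01%). The MEF2 motif was in Ccnb2, Ccnq and Cdkn1b (6.52%, beside 3.42% and 1.89%). Both strands were searched, no match in a member overlaps a match of another motif, and a match describes letters in the window and not binding.

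**Figure D2:**
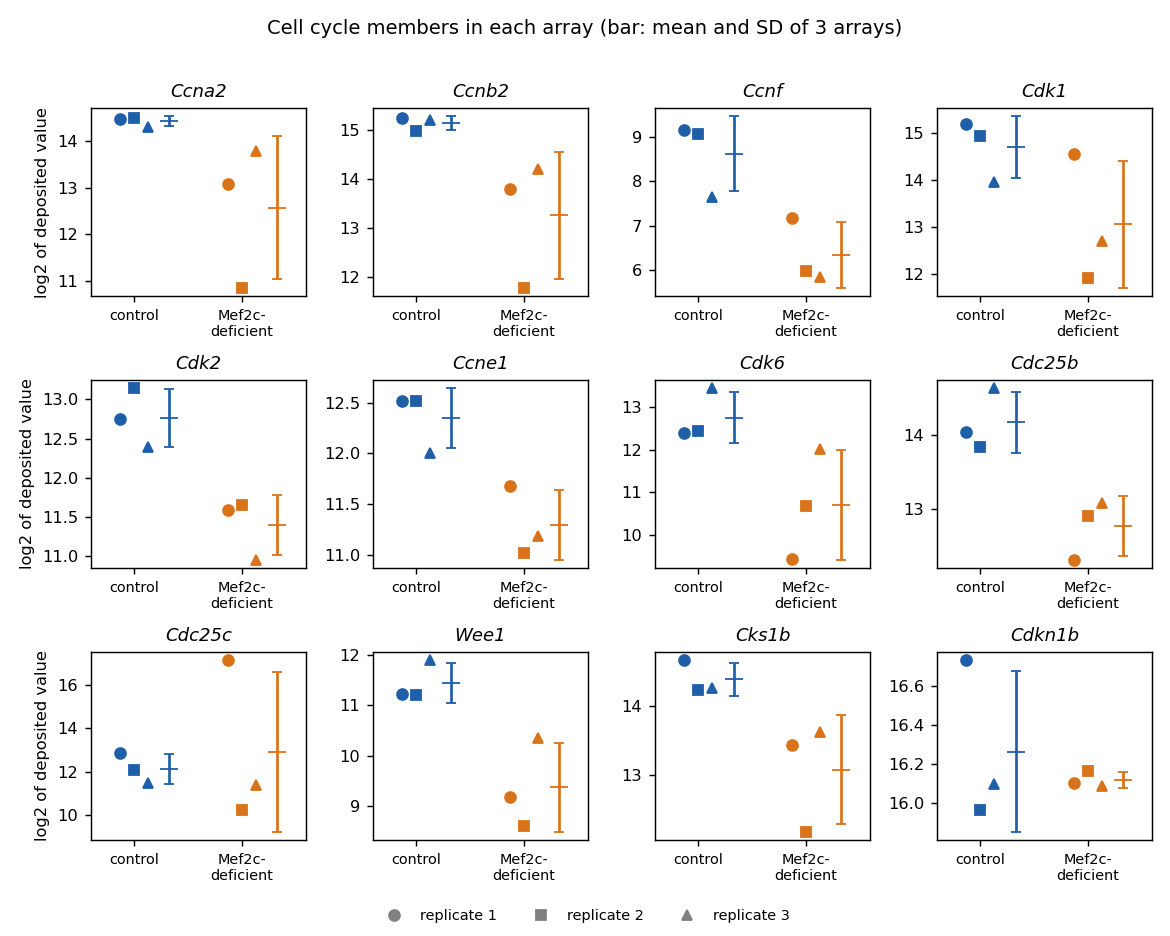
Log2 of the deposited value on the vertical axis for 12 members in each of the 6 arrays (blue control, orange Mef2c-deficient; the shape gives the replicate number), with the mean and SD of 3 arrays as a bar; the axes do not start at 0 and differ between panels. Replicate 2 of the Mef2c-deficient group is the lowest array for Ccna2, Ccnb2, Cdk1 and Cks1b, and replicate 1 stands alone at 17.14 for Cdc25c.

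Cdk1 and Cdk2 are held back by phosphate groups that Wee1 and Pkmyt1 add and Cdc25 phosphatases remove, and Cks proteins help the active kinases bind their substrates. In this group 7 of 8 tested members had a lower mean, 4 of them (50%, beside 20.9% of all genes) with an unadjusted p under 0.05. The group's median was -1.25 (-0.90 relative to all genes). Without Mef2c-deficient replicate 2 the median was -0.70, or -0.33 relative to all genes.

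Wee1, the inhibitory kinase, read 11.22, 11.19 and 11.89 in controls and 9.17, 8.61 and 10.34 in Mef2c-deficient arrays. All 3 deficient arrays lay below the controls, by -2.06 in the mean (SE 0.48, adjusted p = 0.0961). Cdc25b, a phosphatase that acts at the start of mitosis, read 14.04, 13.84 and 14.63 against 12.31, 12.91 and 13.08. The groups were separate here too, with a difference of -1.41 (SE 0.35, adjusted p = 0.105). An inhibitor and an activator of the same kinases thus both had lower means. Cdc25a, which acts from the entry to S phase, read 10.19, 10.16 and 10.31 against 9.74, 8.71 and 9.60, with separate groups and a difference of -0.87 (SE 0.35, adjusted p = 0.172), and -0.55 without Mef2c-deficient replicate 2, where its unadjusted p was no longer under 0.05.

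Cks1b read 14.65, 14.23 and 14.26 in controls and 13.43, 12.18 and 13.62 in deficient arrays, with separate groups and a difference of -1.30 (SE 0.43, adjusted p = 0.136). Cks2, its close relative, read 16.22, 16.26 and 15.20 against 15.48, 14.22 and 15.43, with overlapping groups and a difference of -0.85 (SE 0.47, adjusted p = 0.258). Cks1brt, a retrogene copy of Cks1b, did not pass the filter, with a range of 4.42 to 5.92.

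The remaining 3 members depended on single arrays. Pkmyt1, the membrane-bound relative of Wee1, read 11.15, 11.36 and 10.18 against 10.72, 10.56 and 7.79, for a difference of -1.20 (SE 0.79, adjusted p = 0.316), and of -0.25 without replicate 3, and its unadjusted p was under 0.05 with the replicate block. Cdkn3, a phosphatase that removes the activating phosphate of CDKs, read 13.69, 13.29 and 13.53 against 12.46, 10.06 and 14.06, so that replicates 1 and 2 were below and replicate 3 above all controls. Its difference was -1.31 (SE 0.89, adjusted p = 0.332), and -0.24 without replicate 2. Cdc25c, a mitotic phosphatase, read 12.84, 12.06 and 11.47 in controls and 17.14, 10.24 and 11.38 in deficient arrays. Replicate 1 alone was high, so that the mean was 0.80 higher (SE 1.61, adjusted p = 0.717), and without it the difference was -1.31, with an unadjusted p under 0.05. The probe set of Cdc25c can cross-hybridise, meaning that some of its probes can match other transcripts, and so can those of Ccnf, Ccne1, Cdk4, Cdk11b, Cdk20 and Cdkn2aipnl.

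The G1 group was split. D-type cyclins link growth signals to the cell cycle, and Cdk4 and Cdk6 are their kinases. Of the 5 members, 3 had a lower mean and 2 a higher mean, with a median of -0.97 (-0.62 relative to all genes, and -0.17 without Mef2c-deficient replicate 2).

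Cdk6 read 12.39, 12.43 and 13.43 in controls and 9.45, 10.68 and 12.02 in Mef2c-deficient arrays. No deficient array reached the lowest control, and the difference was -2.03 (SE 0.65, adjusted p = 0.134). Cdk4 read 15.06, 14.46 and 15.10 against 13.84, 13.28 and 14.57, which overlap by 1 array. Its difference was -0.98 (SE 0.40, adjusted p = 0.180), and a second, dimmer probe set of the gene gave -1.03, from 11.94 ± 0.24 to 10.92 ± 0.58 (SD, n = 3 each). Ccnd3, the D-type cyclin required for the expansion of pre-B cells, read 15.30, 14.72 and 15.49 against 14.61, 13.32 and 14.66. Its groups were separate by a small gap, with a difference of -0.97 (SE 0.44, adjusted p = 0.204) that was -0.54 without replicate 2. Its unadjusted p was under 0.05 with the replicate block, with array weights, and without Mef2c-deficient replicate 1 or 3, and not under the other alternatives.

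Ccnd1, a D-type cyclin of many tissues outside the B lineage, read 10.55, 10.52 and 12.50 in controls and 11.29, 12.51 and 15.82 in deficient arrays. The groups overlapped and replicate 3 was highest in both, for a difference of 2.01 (SE 1.13, adjusted p = 0.265). This was 0.71 without Mef2c-deficient replicate 3, while with the replicate block the full difference had an unadjusted p under 0.05. Plasmacytoid dendritic cell markers were also highest in replicate 3 of each group. Their log2 sums were 18.06, 17.26 and 18.78 in controls and 18.82, 18.68 and 20.42 in deficient arrays. The same order, with replicate 3 highest in each group, held for the neutrophil, monocyte or macrophage, T cell, natural killer cell and erythroid sums. The arrays therefore do not single out 1 of these lists, and the part of any of them in the Ccnd1 values was not tested. Ccnd2, which is induced by cytokine and antigen receptor signals in B cells, read 11.66, 11.08 and 12.18 against 12.14, 11.65 and 13.15, with overlapping groups and a difference of 0.68 (SE 0.47, adjusted p = 0.341). This was 0.26 without Mef2c-deficient replicate 3 and 0.40 without control replicate 2, and 1.12 and 1.21 after quantile normalization and cyclic loess, where its unadjusted p was under 0.05.

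**Figure D3:**
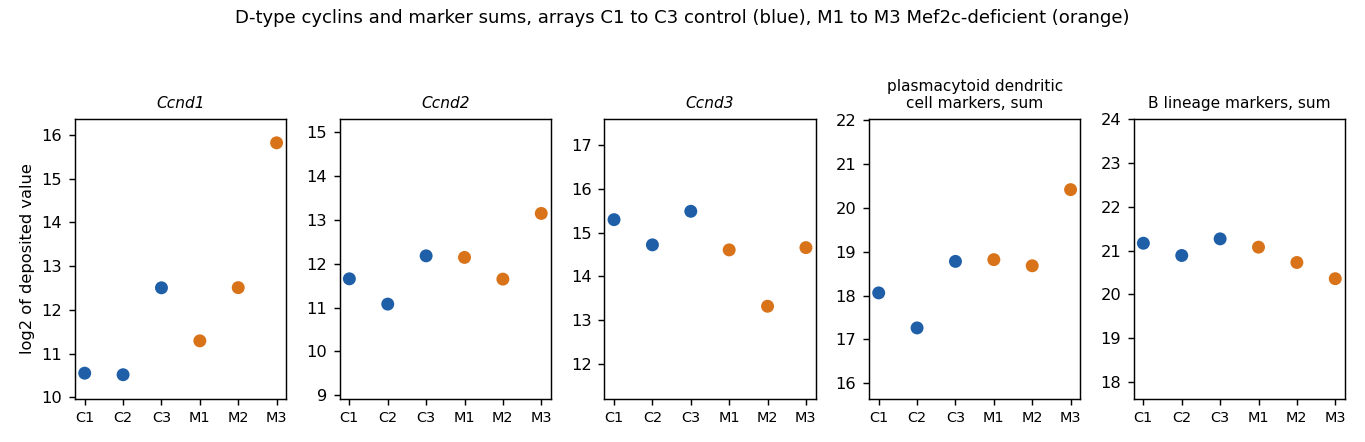
Log2 of the deposited value of the 3 D-type cyclins, and log2 of the summed deposited values of plasmacytoid dendritic cell and B lineage markers, in control arrays C1 to C3 and Mef2c-deficient arrays M1 to M3; every panel spans the same number of log2 units. Ccnd1 and the dendritic cell sum are both highest in M3, at 15.82 and 20.42, while Ccnd3 is lowest in M2 at 13.32. The neutrophil, monocyte or macrophage, T cell and natural killer cell sums, not drawn, are also highest in M3. In C1 the dendritic cell sum is 18.06, and Ly6d alone reads 17.84.

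Pairs of related members were compared within each array, so that a scaling of the whole array cancels, by an exact two-sided permutation test whose smallest possible p is 0.1 with 3 against 3. Ccnd2 against Ccnd3 gave the largest shift of the 10 pairs: the log2 ratio moved from -3.53 ± 0.193 to -1.88 ± 0.51 (SD, n = 3 each), a shift of 1.65 towards Ccnd2 with every deficient array above every control (exact p = 0.1, adjusted over 10 pairs 0.6). Cdk4 against Cdk6 shifted by 1.06 (exact p = 0.3), Cdk12 against Cdk13 by -1.18 (exact p = 0.2) and Wee1 against Pkmyt1 by -0.86 (exact p = 0.6). The shift of Cdk12 against Cdk13 used the brighter Cdk13 probe set, with a difference of 0.42. The dimmer one had the opposite sign, at -0.36, and was not used. For the 6 other pairs the shift lay between -0.60 for Ccne1 against Ccne2 (exact p = 0.5) and 0.60 for Cdk8 against Cdk19 (exact p = 0.3). No pair passed the adjustment, where adjusted p ran from 0.6 to 0.9, and a test of this size cannot show that the members of a pair changed alike.

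At the G1/S boundary, Cdk2 and Ccne1 had separate groups while Ccne2 and Cdk3 overlapped. All 4 members tested had a lower mean, as did 7026 of all 11271 genes tested. The group's median was -0.75 (-0.39 relative to all genes). Cdk2, the kinase of cyclins E and A, read 12.75, 13.14 and 12.40 in controls and 11.59, 11.65 and 10.95 in Mef2c-deficient arrays. The highest deficient array lay well below the lowest control, and the difference was -1.37 (SE 0.34, adjusted p = 0.103). Ccne1, an E-type cyclin, read 12.52, 12.52 and 12.01 against 11.68, 11.02 and 11.19, again with separate groups and a difference of -1.05 (SE 0.32, adjusted p = 0.126), which was -0.52 after cyclic loess with an unadjusted p above 0.05. Ccne2, the second E-type cyclin, read 10.79, 11.32 and 10.63 against 10.19, 9.67 and 11.52, where replicate 3 was the highest array of all, for a difference of -0.45 (SE 0.50, adjusted p = 0.527). This was -0.98 without Mef2c-deficient replicate 3, with an unadjusted p under 0.05, and -0.05 without replicate 2. Cdk3, which is inactive in many laboratory mouse strains, read 7.86, 7.45 and 7.84 against 6.91, 7.70 and 7.54, with overlapping groups and a difference of -0.33 (SE 0.32, adjusted p = 0.475).

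The CDK inhibitors had a small median difference. Of 4 tested, 3 had a lower and 1 a higher mean, none had an unadjusted p under 0.05, and the median of -0.34 was 0.02 above that of all genes. The median depended on the setting, at 0.11 after cyclic loess, -0.70 with array weights and -0.48 without Mef2c-deficient replicate 3. Cdkn1b (p27), the inhibitor of Cdk2 complexes associated with rest, read 16.73, 15.96 and 16.10 in controls and 16.11, 16.17 and 16.09 in deficient arrays. The 3 deficient arrays were nearly equal and within the control range, for a difference of -0.14 (SE 0.31, adjusted p = 0.731) that was 0.02 after quantile normalization and 0.23 after cyclic loess. Cdkn2c (p18), an inhibitor of Cdk4 and Cdk6, read 14.70, 14.36 and 14.15 against 14.39, 12.74 and 14.50, with only replicate 2 low, for a difference of -0.53 (SE 0.50, adjusted p = 0.467), and 0.04 without that array. Cdkn2d (p19), another inhibitor of the same kinases, read 14.05, 12.88 and 13.94 against 12.88, 12.03 and 13.53, with overlapping groups and a difference of -0.81 (SE 0.49, adjusted p = 0.288). With the replicate block Cdkn2d had an unadjusted p under 0.05, and with array weights both Cdkn2c and Cdkn2d did. Cdkn2a, whose locus encodes p16 and the p53 activator Arf, was the one inhibitor with a higher mean. It read 7.95, 7.37 and 7.62 against 8.42, 7.98 and 8.38, with groups apart by a narrow margin, for a difference of 0.62 (SE 0.30, adjusted p = 0.221). Cdkn1c and Cdkn2b did not pass the filter, with ranges of 5.52 to 7.43 and 5.74 to 6.79.

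Among the transcriptional cyclins and kinases, 12 of 14 had a lower mean, 4 of them (28.6%, near the 20.9% of all genes) at an unadjusted p under 0.05, with a median of -0.73 (-0.37 relative to all genes). This median was -0.44, or -0.12 relative to all genes, without Mef2c-deficient replicate 3. Cdk19, a kinase of the Mediator complex, read 12.73, 12.61 and 12.94 in controls and 10.70, 11.88 and 11.60 in deficient arrays, with separate groups and a difference of -1.37 (SE 0.37, adjusted p = 0.111). Ccnc, the cyclin of that Mediator module, read 9.18, 8.93 and 9.31 against 8.21, 8.23 and 8.31. Both groups were tight and apart, for a difference of -0.89 (SE 0.27, adjusted p = 0.125). Cdk7, the CDK-activating kinase and a subunit of TFIIH, read 10.97, 11.21 and 11.79 against 10.44, 10.59 and 9.01, with separate groups and a difference of -1.31 (SE 0.48, adjusted p = 0.155), or -0.81 without replicate 3. Ccnh, the cyclin of Cdk7, read 13.05, 12.94 and 12.65 against 12.12, 12.001 and 11.99, likewise separate, for a difference of -0.84 (SE 0.27, adjusted p = 0.133).

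Differences of the remaining 10 transcriptional members ran from -0.84 for Ccnl2 to 0.42 for Cdk13. Cdk12, a kinase of the elongating polymerase, had separate groups on the lower side (-0.76, SE 0.33, adjusted p = 0.191). Cdk9 and Ccnt1, the partners of the elongation factor P-TEFb, differed by -0.49 (adjusted p = 0.430) and -0.70 (adjusted p = 0.335) with overlapping groups. Ccnl2 and Cdk11b, which act in RNA splicing, were lowest in replicate 3, at 12.19 and 11.85. Replicate 1 was also below all controls and replicate 2 above them. The 2 probe sets of Cdk13 had opposite signs, 0.42 and -0.36. Cdk8, Cdk10, Ccnk and Ccnq differed by -0.77, 0.19, -0.34 and -0.49, with overlapping groups.

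The other cyclins and kinases, a mixed set with roles outside the division cycle or not well known, had a median of -0.65 (-0.30 relative to all genes), and this was 0.17 above all genes without Mef2c-deficient replicate 3. An unadjusted p under 0.05 was met on the lower side by 4 of 14 tested (28.6%), near the 20.9% of all genes. Cdkn2aip, a partner of Arf that modulates p53, read 9.94, 9.78 and 10.63 in controls and 7.97, 8.86 and 8.35 in deficient arrays. The groups were far apart, and the difference of -1.72 (SE 0.37) had the smallest p of all members (adjusted p = 0.0934). Ccng2, a cyclin raised in cells that stop dividing, read 14.06, 14.43 and 14.47 against 12.58, 12.35 and 13.76, with separate groups and a difference of -1.43 (SE 0.42, adjusted p = 0.121). Its direction was thus that of the mitotic cyclins. Cdkn2aipnl, a relative of Cdkn2aip, read 13.69, 13.46 and 13.15 against 12.76, 12.41 and 11.58, and Ccnj read 11.25, 10.93 and 11.88 against 10.53, 10.64 and 10.14. Both had separate groups, with differences of -1.18 (SE 0.38, adjusted p = 0.133) and -0.92 (SE 0.34, adjusted p = 0.158).

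Ccni and Cdk18 had separate groups on the higher side. Ccni read 11.94, 12.30 and 12.18 against 12.48, 12.83 and 13.53, for a difference of 0.81 (SE 0.35, adjusted p = 0.191), and Cdk18 read 7.73, 8.07 and 7.82 against 8.90, 8.17 and 8.36, for 0.60 (SE 0.31, adjusted p = 0.236). The other 8 tested members, Ccndbp1, Ccno, Ccny, Ccnyl1, Cdk5, Cdk16, Cdk17 and Cdk20, ran from -0.72 to 0.44 with overlapping groups. Ccnjl and Cdk14 did not pass the filter, with ranges of 4.38 to 5.78 and 5.36 to 6.78. Together with the 5 dim members named above, they make up the 7 members not tested.

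**Figure D4:**
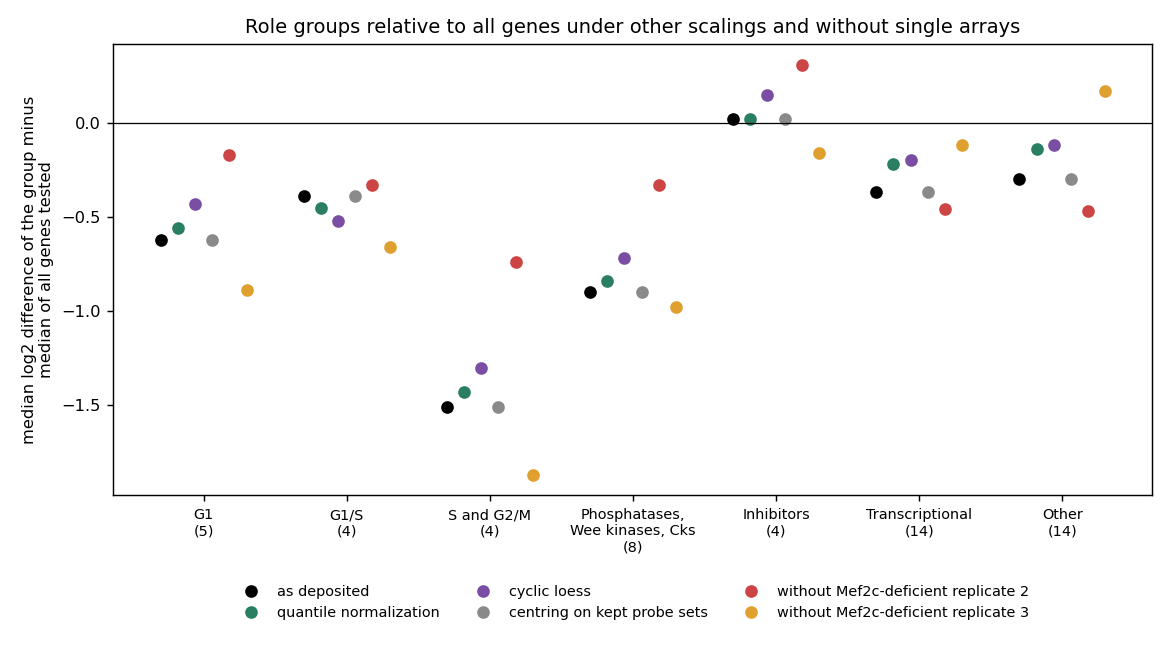
Median log2 difference of each role group minus the median of all genes tested, with the number of tested members in brackets, under 4 scalings and without 2 single arrays. The S and G2/M group has the lowest value under each setting shown, from -1.87 to -0.74, while the inhibitors lie between -0.16 and 0.31.

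The regulators and targets that work with these members were read from a separate list of retinoblastoma and E2F proteins, mitotic regulators, ubiquitin ligase subunits and subunits of the transcriptional CDK complexes. Of 31 genes listed, 30 were tested, and 28 had a lower mean, as did 7026 of all 11271 genes tested. At an unadjusted p under 0.05, 20 (66.7%) were lower and 0 higher, beside the 20.9% and 5.32% of all genes. None passed the adjusted threshold, and the median was -1.26 (-0.90 relative to all genes). Array medians were -0.90, -1.19 and -1.31 in the deficient group, beside -0.37, -0.21 and -0.24 for all genes tested. After cyclic loess 13 were lower at an unadjusted p under 0.05, beside 10.2% of all genes.

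Of the 30 partners tested, 19 (63.3%) had separate groups on the lower side and 1 (3.33%) on the higher side, beside 27.1% and 10.6% of all genes. The 6 with the smallest p are named here, and their separate groups follow largely from that choice. Rbl1 (p107), a retinoblastoma relative, had a mean of 12.31 ± 0.128 in controls and 10.65 ± 0.289 in deficient arrays (SD, n = 3 each), a difference of -1.66 with a limma adjusted p of 0.0769. Larp7, which holds P-TEFb in its inactive form, differed by -1.51 (SE 0.273, adjusted p = 0.0781), and Lin54, a subunit of the DREAM complex that binds the CHR letters, by -1.39 (SE 0.291, adjusted p = 0.0934). Skp2, which with Cks1b targets p27 for destruction, differed by -2.68 (SE 0.577, adjusted p = 0.0934), but its deficient mean of 6.32 lay below the filter level of 7.26 and it passed through its controls. E2f2, an activating E2F, differed by -1.64 (SE 0.376, adjusted p = 0.0950), and Mnat1, the third subunit of the Cdk7 complex, by -1.23 (SE 0.292, adjusted p = 0.0975).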

How the data were processed

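Per the study's methods, robust multiarray averaging (RMA) adjusted the background, normalized by quantiles and summarised the probes, and limma assessed differential expression; the submitters' notes name both. The methods give a t-test in general terms and not for the arrays by name. Versions of these tools were not given in the sources used here. The authors deposited 1 linear intensity value per array for each of 23913 probe sets, and 2865 values exceed the ceiling of a 16-bit scanner. Only the log2 transform was applied, with no offset. The deposited arrays do not share a median, at 236 to 268 in controls and 277 to 285 in Mef2c-deficient arrays. Why they differ after the stated quantile normalization was not tested. The median log2 difference of all genes, -0.36 as reported, was 0.07 with no filter. It was -0.1 after a further quantile normalization of the deposited values.

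Probe sets were named from the platform annotation (17689 with 1 symbol, 524 with several, 5699 with none). Each gene was represented by its brightest probe set, and kept if its mean log2 over 6 arrays was above the 40th percentile (7.26). The comparison used lmFit and eBayes of limma 3.58.1 (R 4.3.3) with genotype as the single term. Tests were two-sided and adjusted by Benjamini-Hochberg over 11271 genes. The fit was also run on simulated data with equal spread in both groups and changes larger than those of the members. That run does not show how the fit behaves here. The SD of the deviations from the group mean was 0.289 to 0.469 in control arrays and 0.556 to 0.788 in Mef2c-deficient arrays. No set test was run. The precision is limited by 3 arrays per group.

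Members, role groups and lists were chosen with earlier results of these data known. Values in every array are given for tested members of the division groups and inhibitors, and for the 4 with the smallest p in each remaining group; 6 partners are named likewise. Genotypes and replicate numbers follow the labels. Arrays of one number deviated together across genes (r = 0.348, 0.226 and 0.373, against -0.309 to 0.129 for other pairs); this pairing is inferred from the values and from the shared numbers, whose meaning no label gives.

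Alternatives were other filters, scalings, an offset of 16, probe set rules, variance models, the methods' t-test, base e, a replicate block and the omission of each array.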

Additional observations from a re-analysis of the deposited data

How the results depend on the processing

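Directions held for 41 of 53 members under all alternatives run, and 12 had the opposite sign under 1 or more. Some of these alternatives cannot change a sign. The other filters, the methods' t-test, the trend and robust eBayes and the replicate block leave a member's difference as it was. Base e only rescales it. The count of 41 thus tests direction only under the remaining alternatives. The 2 alternatives chosen after seeing the data are the centring of arrays on the genes tested and the omission of the arrays numbered 3. The cause of the changes below was not tested, beyond the fewer arrays or other genes that an alternative uses by its construction.

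Members lower at an unadjusted p under 0.05 numbered 20 as reported. They numbered 10 after quantile normalization and 7 after cyclic loess (beside 11.1% and 10.2% of all genes). They numbered 9 after centring on kept probe sets and 7 after centring on the genes tested (beside 10.7% and 6.48%). The methods' t-test gave 12 (beside 16.9%), and each array left out in turn gave 12 to 23 (beside 12.4% to 23.7%). Members higher, 0 as reported, numbered 2 with no filter, beside 1445 of 17372 genes. Under those 4 scalings they numbered 2, 3, 4 and 6, beside 814, 931, 1581 and 2278 of 11271 genes. They numbered 1 with the offset of 16, 3 with array weights and 1 by the t-test, beside 575, 1005 and 641 genes. They numbered 1 without the arrays numbered 3 and 0 to 2 with each array left out, beside 632 and 239 to 797 genes. At the thresholds of the study, the 15 lower members became 7, 4, 9 and 4 under the 4 scalings, 9 by the t-test and 7 with base e, and the 0 higher members became 2, 2, 1 and 5 under the scalings, 1 with array weights, 1 without the arrays numbered 3, and 0 to 2 with each array left out. Lower members with separate groups, 20 as reported, numbered 13, 10 and 9 after quantile normalization, cyclic loess and centring on the genes tested. Higher ones, 3 as reported, numbered 1 with the 60th percentile filter, 6 after centring on the genes tested, 7 without the arrays numbered 3 and 3 to 6 with each array left out. For the study's thresholds and for separate groups, shares of all genes are given above for the reported setting only. Under the alternatives these counts thus have no background here, and they do not show how members moved beside all genes. An adjusted p under 0.05 was met by 15 lower members with array weights and by 0 to 2 with each array left out.

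The members' median of -0.77 became -0.45, -0.33, -0.48 and -0.31 under the 4 scalings, -0.53 with base e, -0.61 without the arrays numbered 3 and -0.88 to -0.67 with each array left out. Relative to all genes it was -0.77 with no filter and -0.60 to -0.30 with each array left out. With no filter the relative medians were -0.82 for the G1/S group, -0.81 for the transcriptional group and -1.30 for the partners. The G1/S group was at -0.88 without the arrays numbered 3, and the partners at -0.63 with base e. With each array left out, the phosphatases, Wee kinases and Cks subunits ran from -1.09 to -0.33, the transcriptional group from -0.56 to -0.12 and the other group from -0.47 to 0.17. Partners lower at an unadjusted p under 0.05 numbered 13 after each of the 4 scalings, beside 11.1%, 10.2%, 10.7% and 6.48% of all genes.

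With the replicate block, 23 members were lower, including all 20 called without it, beside 23.1% of all genes. Another 2 were higher, beside 757 of 11271 genes, and 1 of them met the thresholds of the study. No member passed the adjusted threshold with the block.

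Opposite signs were found for Ccndbp1 with array weights (-0.03), Ccne2 and Cdk3 after centring on the genes tested (0.01 and 0.13), Ccnl2 without Mef2c-deficient replicate 3 (0.02) and Cdkn2c without replicate 2 (0.04). Ccnk was at 0.27 without Mef2c-deficient replicate 3, 0.12 after centring on the genes tested and 0.32 without the arrays numbered 3. Ccno was at -0.10 after quantile normalization, -0.15 after cyclic loess and -0.02 without Mef2c-deficient replicate 2. Cdc25c was at -1.31 without Mef2c-deficient replicate 1, and Cdk10 at -0.06 and -0.09 without replicates 1 and 2. Cdk11b was at 0.00 without Mef2c-deficient replicate 3 and 0.08 without the arrays numbered 3. Cdk20 was at 0.07 and 0.24 after centring on kept probe sets and on the genes tested. Cdkn1b was at 0.02, 0.23, 0.15 and 0.32 under the 4 scalings and at 0.09 without control replicate 1. With each array left out in turn, the ranges of these members were -0.93 to 0.27 for Ccnk, -1.45 to 0.02 for Ccnl2, -0.02 to 0.25 for Ccno, -1.31 to 2.14 for Cdc25c, -0.09 to 0.72 for Cdk10, -1.25 to 0.00 for Cdk11b, -0.29 to 0.09 for Cdkn1b and -0.84 to 0.04 for Cdkn2c.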
